A study of Mus musculus with 12 samples.

Results

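Antisense transcripts are RNAs read from the strand opposite another gene, most of them without an open reading frame of note. In the count table of mouse PreMegEs examined here, 154 of 1731 genes with the antisense biotype reached at least 1 CPM (counts scaled to a common library total) in at least 3 of 12 libraries, with Tsix left out, and these 154 are the transcripts described. They stood among 41128 genes in all and 13272 genes at the same level. PreMegEs are bone marrow progenitors that can still give rise to megakaryocytes and to erythroid cells, and the table held 3 libraries for each of 4 groups, each library made from 3 pooled mice of 12 to 16 weeks, males and females, on the C57BL/6 background. WT cells came from wild type mice. P2- and P2+ cells came from mice carrying 1 copy of a dual reporter allele (Runx1 P1-GFP::P2-hCD4/+), in which GFP reports the distal promoter P1 and a truncated human CD4 reports the proximal promoter P2. Both were positive for P1-GFP and were separated by sorting for absence (P2-) or presence (P2+) of hCD4. KO cells came from RUNX1C knockout mice, homozygous for a P1-GFP allele by the study's methods and so without the isoform made from P1. All cells were sorted as Lineage-, Sca1-, Kit+, CD41-, CD16/32-, Endoglin-, CD150+, so the P2- and P2+ groups differed from WT both in reporter allele and in the hCD4 gate.

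Runx1 encodes a transcription factor of blood development, and its P2 promoter gives the isoform RUNX1B. The P2- to P2+ comparison asked how PreMegEs that use this promoter differ from those that do not, and the KO to WT comparison asked what changes without RUNX1C. The paper's RNA sequencing covers WT, P2- and P2+ PreMegEs and does not describe the KO libraries. Whether these were made together with the WT libraries is not stated, so genotype and any batch difference cannot be told apart in that comparison. An antisense RNA can arise from a divergent promoter shared with its neighbour, from an enhancer inside that neighbour, or from a promoter of its own within an intron. Some are known to act on the gene they overlap, and most have no known function. Where a read is counted without regard to strand, bases that lie in exons on both strands cannot be assigned to either gene. The libraries were prepared by a strand-specific kit, but whether strand was used in counting is not stated, so reads of an antisense transcript and of the gene across from it may be mixed wherever their exons overlap.

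Library totals ran from 10726098 to 14445026 counts, so that 3 counts, the limit that a count of 0 allows, equalled 0.208 to 0.280 CPM (counting error only). The genes of the positive sort markers were present, with Kit at 735 to 1134 CPM and Slamf1 (CD150) at 34.4 to 65.2 CPM. Gata2, a transcription factor of these progenitors that was no part of the gate, was at 868 to 1221 CPM, whereas Cd3e was at most 0.601 CPM, Ly6g at most 0.346 CPM and Itgam at most 7.21 CPM. Runx1 was counted over both promoters together, with 375 ± 16.5 CPM in WT, 206 ± 8.59 in P2-, 637 ± 30.4 in P2+ and 358 ± 17.9 in KO (SD, n = 3), which does not test the loss of RUNX1C. The summed level of 23 megakaryocyte markers was 4327 to 5393 CPM in P2+ and 1167 to 1421 in P2-, with WT at 2808 to 2989 and KO at 2105 to 2301. For 30 erythroid markers it was 1851 to 2142 CPM in P2+, 6887 to 7852 in P2-, 4226 to 4784 in WT and 6886 to 7564 in KO, and for 19 neutrophil and monocyte markers 387 to 557, 82.5 to 183, 210.2 to 381 and 117 to 179 CPM. Of these 3 lists 22, 28 and 16 genes met the 1 CPM rule. For 15 stem cell markers the summed level was 3061 to 3389 CPM in P2+, 1669 to 2034 in P2-, 2411 to 2577 in WT and 2001 to 2189 in KO. For 17 lymphoid markers, 11 of them at the 1 CPM rule, it was 222 to 368, 109 to 143, 281 to 312 and 148 to 156 CPM in the same order, and for 12 mast cell and basophil markers, 5 at the rule, 184 to 316, 364 to 419, 227 to 260.1 and 418 to 511 CPM. The part of these shifts in any result given here was not tested, and in bulk libraries fewer cells of a type and less RNA per cell cannot be told apart. Replicate 2 of P2- and of P2+ stood apart in 21 immediate early genes, with summed levels of 14938 and 11382 CPM against 314 to 1619 in the other 10 libraries.

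The transcripts were placed by the GENCODE annotation of GRCm38, which held 149 of the 154. In it 130 were still of the antisense type and 19 had another type, 3 of them protein coding. A gene on the other strand was found for 142 (the partner, protein coding in 140). Exons overlapped in 104 pairs, only the spans in 23, and in 15 the pair stood head to head with starts within 2 kb. Of the 149, 7 had no partner. In 84 a protein-coding gene started on the other strand within 2 kb of the transcript's own start, and 43 lay wholly inside the partner. Exon overlap was partial as a rule, with a median of 16.6% of a transcript's exon bases under exons of the other strand, none in 40, and all of them in 1, Gm12999, whose 485 exon bases lie within exons of Atpif1. Another 6 shared exon bases with a gene on their own strand, which no use of strand resolves.

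The sequences of 4 start regions and of part of 1 exon are shown as examples from the 22 transcripts that changed in at least 1 comparison. The windows run from 250 bases before to 50 bases after the RefSeq start (GRCm38.p6), and capitals mark 3 motifs searched on both strands, the GATA motif GATAA, the RUNX motif TGTGGT and the Ets motif CGGAAG. Gm15915 is the transcript with the highest level per base of those with a known length (chr10:93683273-93683572, minus strand), Asb17os the one that was nearly absent from P2+ (chr3:153852375-153852674, minus strand), 4933424M12Rik the one with the largest fitted rise in P2+ (chr4:107783436-107783735, plus strand) and Gm13012 one that was higher in P2+ than in P2- and lower in KO than in WT (chr4:137883913-137884212, minus strand).

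Gm15915 promoter: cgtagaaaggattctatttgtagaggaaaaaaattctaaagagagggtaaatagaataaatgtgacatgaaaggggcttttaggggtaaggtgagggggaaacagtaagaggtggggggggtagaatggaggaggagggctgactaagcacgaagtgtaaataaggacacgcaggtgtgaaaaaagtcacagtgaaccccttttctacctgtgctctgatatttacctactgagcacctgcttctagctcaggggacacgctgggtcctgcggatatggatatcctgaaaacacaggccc
Asb17os promoter: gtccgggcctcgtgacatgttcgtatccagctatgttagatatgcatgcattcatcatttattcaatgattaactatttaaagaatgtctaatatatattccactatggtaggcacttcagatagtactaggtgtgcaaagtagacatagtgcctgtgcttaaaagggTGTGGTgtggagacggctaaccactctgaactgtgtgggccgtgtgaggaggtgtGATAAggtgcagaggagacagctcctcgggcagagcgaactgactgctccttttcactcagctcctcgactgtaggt
4933424M12Rik promoter: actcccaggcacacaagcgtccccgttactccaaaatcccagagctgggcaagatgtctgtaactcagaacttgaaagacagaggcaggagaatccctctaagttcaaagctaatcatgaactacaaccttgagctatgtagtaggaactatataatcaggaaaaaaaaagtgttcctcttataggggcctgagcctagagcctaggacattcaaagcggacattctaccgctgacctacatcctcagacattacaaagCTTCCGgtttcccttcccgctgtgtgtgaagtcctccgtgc
Gm13012 promoter: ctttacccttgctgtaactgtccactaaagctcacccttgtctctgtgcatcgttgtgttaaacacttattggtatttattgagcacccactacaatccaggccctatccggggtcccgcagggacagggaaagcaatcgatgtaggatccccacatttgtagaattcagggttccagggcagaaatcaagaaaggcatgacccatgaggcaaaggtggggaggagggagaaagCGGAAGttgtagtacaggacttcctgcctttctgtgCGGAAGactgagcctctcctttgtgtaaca

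No match to the 3 motifs was found in the Gm15915 window. The Asb17os window held 1 RUNX and 1 GATA match, the 4933424M12Rik window 1 Ets match and the Gm13012 window 2 Ets matches. Over the 82 windows of the 75 transcripts that had one, the GATA motif was found in 14.6%, the RUNX motif in 22.0% and the Ets motif in 22.0%, against 25.4%, 16.8% and 16.9% of all 32851 windows. A match is a string of letters and not a bound site.

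An example of bases used by both strands is a part of exon 2 of Asb17os (chr3:153850639-153850770, minus strand), shown 5′ to 3′. Capitals mark the 112 bases (chr3:153850659-153850770) that are also coding exon on the plus strand in Asb17, a gene for an ankyrin repeat and SOCS box protein. The next 20 bases follow in small letters.

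Asb17os exon: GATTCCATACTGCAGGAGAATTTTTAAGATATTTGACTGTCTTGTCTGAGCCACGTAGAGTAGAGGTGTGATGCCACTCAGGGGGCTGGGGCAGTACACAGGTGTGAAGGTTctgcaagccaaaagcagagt

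Reads on these 112 bases belong to either gene depending on strand.

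As a class the transcripts were scarce. Their counts made up 0.108% ± 0.00734 of all counts in WT, 0.108% ± 0.00218 in P2-, 0.105% ± 0.00182 in P2+ and 0.109% ± 0.00526 in KO (SD, n = 3). Brip1os alone made up 15.3% to 23.4% of these counts. Without it the shares were 0.0877% ± 0.00802 in WT, 0.0895% ± 0.00317 in P2-, 0.0822% ± 0.00209 in P2+ and 0.0897% ± 0.00416 in KO, and each P2+ library lay below each P2- and each KO library. WT overlapped all 3 groups in this share, and none of these differences was tested. The median transcript had a mean of 2.10 CPM over the 12 libraries, or 26.3 counts a library, against 3.25 CPM for 232 lincRNA genes and 34.7 CPM for 11515 protein-coding genes chosen by the same level rule. Means ranged from 0.588 to 202.5 CPM, 81 transcripts had at least 2 CPM, 21 had at least 10 CPM, and 80 were at 1 CPM or more in all 12 libraries. Only 2 met the level in libraries of 1 group alone, Gm16141 in P2+ and Dhrs13os in P2-. At the edge of the rule, the third-highest CPM was 1.03 for Dhrs13os, A230060F14Rik and Appbp2os just inside, and 0.997 for Stamos, 0.991 for Cyp4x1os and 0.944 for Ppp1r3fos just outside.

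Levels of different genes were set side by side per kilobase of exon (RPKM, the CPM divided by exon length in kb). Among the 149 with an exon length the highest level was that of Gm15915 at 78.8 RPKM, followed by Brip1os at 31.2, 5430417L22Rik at 26.3, 9130221H12Rik at 25.3 and Rab26os at 16.4 RPKM. Gm16586, which has no exon length because it is 1 of the 5 not in the annotation, averaged 53.1 CPM and could not be ranked. The 5 after Rab26os reached down to 11.6 RPKM, RP24-87I22.7, Gm16124, Gm26982, Gm16536 and Gm9888. 5430417L22Rik is a protein-coding gene in the newer annotation, where it is called Inafm2, so its antisense biotype is out of date. The median transcript stood at 1.72 RPKM and the median partner at 9.05 RPKM. The partner was the higher of the pair by a median of 4.44-fold, yet 46 of 142 transcripts stood above their partner, 34 of them with exon overlap. Gm15915 was one of these, at 78.8 RPKM against 2.94 RPKM for Ntn4, the gene of the secreted matrix protein netrin-4, in whose span it lies without sharing exon bases. Gm12999, the transcript wholly under exons of Atpif1 (an inhibitor of the mitochondrial ATP synthase), had 7.78 RPKM against 75.1.

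Brip1os, the transcript with the most counts, was among the steadiest. It is named for Brip1, a DNA helicase gene, and its exons overlap Ints2, a subunit of the Integrator complex. Its level was 193, 195 and 210.5 CPM in WT, 198, 166 and 192 CPM in P2-, 237, 208 and 244 CPM in P2+ and 208, 189.5 and 189 CPM in KO. The coefficient of variation over the 12 libraries was 10.6%, after 10.1% for 5430417L22Rik and before 11.2% for Gm4285, 11.6% for Rab10os and 13.1% for 9130221H12Rik. Gm4285 stands head to head with Tpt1, a gene expressed in nearly all cells, and Rab10os lies across from Rab10, a GTPase of membrane traffic.

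Between P2+ and P2-, 17 of the 130 transcripts tested changed (13.1%; edgeR's quasi-likelihood test with Benjamini-Hochberg adjustment over all genes tested, adjusted p under 0.05 and at least 2-fold), 7 higher and 10 lower in P2+. Over all genes tested 12.7% changed, 9.54% higher and 3.13% lower, so the transcripts changed about as often as any gene, and 5.38% of them rose and 7.69% fell. The transcripts had fewer counts, with a median SE of 0.36 on the log2 scale against 0.14 for all genes. Their median log2 fold change was -0.03, against -0.02 for all genes. At any fold 24 (18.5%) passed, against 37.1% of all genes, and 40 (30.8%) had libraries that did not overlap between P2+ and P2-, against 49.3% of all genes. The other 24 of the 154 were under the level filter in these 6 libraries, and a transcript expressed in 1 group alone could pass the filter only through that group. Among the 208 lincRNA genes tested 35 changed.

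**Figure D1:**
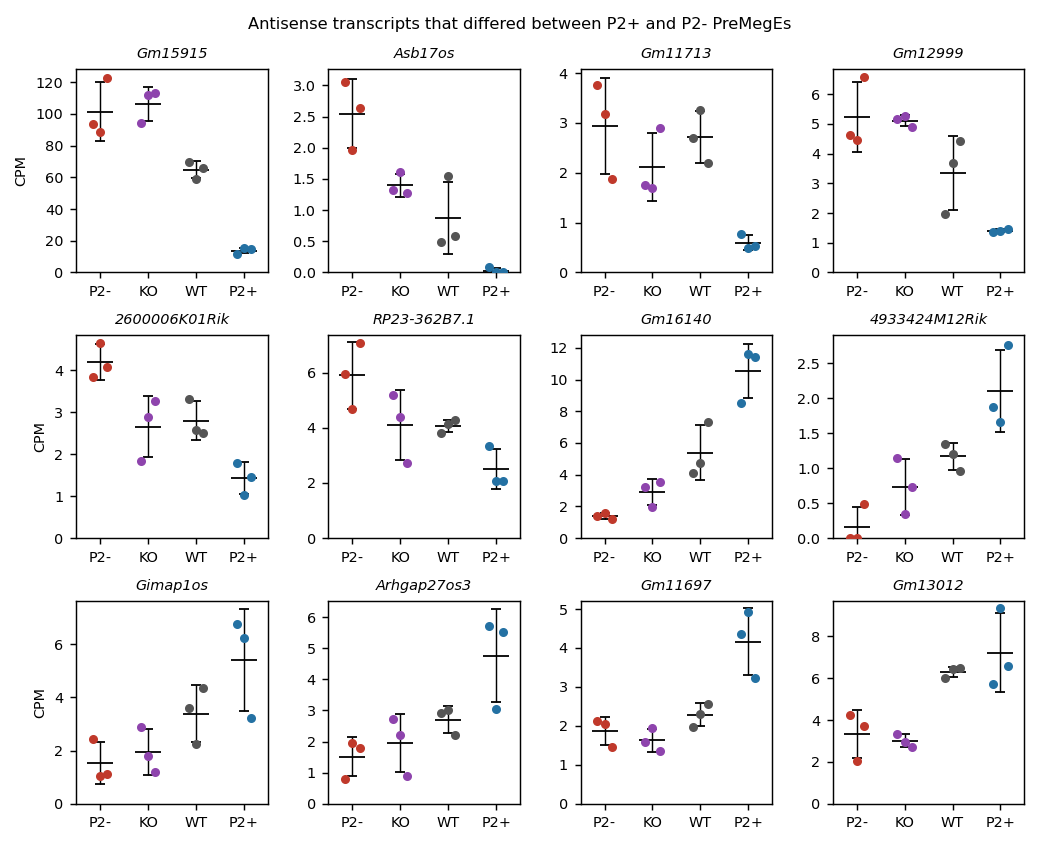
CPM of 12 transcripts that changed between P2+ and P2-, in each library (points), by group on the horizontal axis, with the mean (long bar) and SD (whiskers, n = 3). In all 12 the P2+ and P2- libraries do not overlap, with Gm15915 at 11.8 to 15.2 CPM in P2+ and 88.3 to 122 CPM in P2-.

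Gm15915 (ENSMUSG00000085723, chr10:93674218-93683322, minus strand) showed the fall with the smallest adjusted p. Its level was 93.4, 88.3 and 122 CPM in P2-, 11.8, 15.2 and 14.5 CPM in P2+, 69.5, 59.0 and 66.1 CPM in WT and 94.2, 112 and 113 CPM in KO. P2+ lay far below every other library, WT stood apart in the middle, and KO and P2- overlapped at the top. P2+ was 7.46-fold lower than P2-, a log2 fold change of -2.90 ± 0.16 (SE, n = 3 per group, edgeR adjusted p = 4.73e-06). Ntn4 fell as well, from 14.4 ± 0.688 CPM (SD, n = 3) to 5.39 ± 0.862 CPM (SD, n = 3), -1.44 ± 0.18 (SE, edgeR adjusted p = 3.87e-04) on the log2 scale. The change in the transcript was thus the larger of the pair, and no exon base is shared between them.

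Asb17os (ENSMUSG00000086438, chr3:153836902-153852424, minus strand) was at 3.06, 1.96 and 2.63 CPM in P2- and 0.0855, 0 and 0 CPM in P2+, 0.495, 1.54 and 0.588 CPM in WT and 1.31, 1.61 and 1.27 CPM in KO. It passed the level filter through P2- alone. All P2+ libraries were at or under 3 counts, so P2+ was at least 11.1-fold lower than P2- (edgeR adjusted p = 3.08e-04; 3 counts per library as floor). Its partner Asb17 went the same way, with 2.04, 2.80 and 2.35 CPM in P2- and 0.0855, 0 and 0.230 CPM in P2+. The pair shares the exon bases shown above, and at these counts a few reads decide either value.

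A further 4 falls kept their call without any 1 library or could not be tested there. Gm11713, inside Pitpnc1 (a phosphatidylinositol transfer protein), had 3.76, 3.17 and 1.87 CPM in P2- and 0.770, 0.485 and 0.537 CPM in P2+, a log2 fold change of -2.32 ± 0.44 (SE, n = 3 per group, edgeR adjusted p = 0.00340). Gm12999 had 4.62, 4.48 and 6.58 CPM in P2- and 1.37, 1.39 and 1.46 CPM in P2+, a log2 fold change of -1.92 ± 0.30 (SE, n = 3 per group, edgeR adjusted p = 0.00117). Atpif1, whose exons cover it whole, moved by -0.95 ± 0.09 (SE, edgeR adjusted p = 7.51e-05), so the smaller of the pair by level changed by more, but all its reads lie on bases that Atpif1 also uses. 2600006K01Rik, across from Cercam, had 3.84, 4.66 and 4.08 CPM in P2- and 1.80, 1.04 and 1.46 CPM in P2+, a log2 fold change of -1.59 ± 0.32 (SE, n = 3 per group, edgeR adjusted p = 0.00490). RP23-362B7.1, across from the axonemal dynein gene Dnah8 and sharing exon bases with Glo1 on its own strand, had 5.96, 4.66 and 7.06 CPM in P2- and 3.33, 2.08 and 2.07 CPM in P2+, a log2 fold change of -1.28 ± 0.30 (SE, n = 3 per group, edgeR adjusted p = 0.00933). All 4 had no overlap between the groups. Gm11713 could not be tested without any 1 of the P2- libraries, since it then failed the level filter.

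The other falls were near 2-fold or rested on single libraries. Gm9888, across from the chemokine-like factor gene Cmtm7, was at 12.5 ± 2.56 CPM (SD, n = 3) in P2- and 5.92 ± 0.484 CPM (SD, n = 3) in P2+, and WT and KO stood with P2- at 13.3 ± 2.24 CPM (SD, n = 3) and 13.2 ± 0.877 CPM (SD, n = 3). It had a log2 fold change of -1.10 ± 0.21 (SE, n = 3 per group, edgeR adjusted p = 0.00314) and stood just short of 2-fold without P2- replicate 1, at -0.99, while Cmtm7 differed by 0.12 ± 0.07 (SE, edgeR adjusted p = 0.235). 1810034E14Rik, inside Cdc14b, had a log2 fold change of -1.11 ± 0.29 (SE, n = 3 per group, edgeR adjusted p = 0.0146) and dropped under 2-fold without P2+ replicate 1, at -0.90. Gm26513 and BC051537, named after their values were seen, had log2 fold changes of -1.40 ± 0.47 and -1.01 ± 0.27 (SE, edgeR adjusted p = 0.0443 and 0.0177). The first lost its call without any 1 of the P2+ libraries, and the second without P2- replicate 3 or P2+ replicate 3.

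Of the transcripts higher in P2+, 2 lie in Meis1, a homeobox transcription factor gene of stem cells and megakaryocyte progenitors. Gm16140 (ENSMUSG00000084085, chr11:19009128-19011183, plus strand) had 1.41, 1.58 and 1.18 CPM in P2-, 3.24, 1.95 and 3.53 CPM in KO, 4.11, 4.72 and 7.35 CPM in WT and 8.55, 11.6 and 11.4 CPM in P2+. No group overlapped another, and the order of the means was P2-, KO, WT, P2+. P2+ was 7.43-fold above P2-, a log2 fold change of 2.89 ± 0.26 (SE, n = 3 per group, edgeR adjusted p = 5.16e-05). Of its 1121 exon bases 896 are also exon in Meis1, which had 23.7 RPKM against 4.51 for Gm16140, so the pair may share reads. Gm16141 (chr11:19013817-19015154, plus strand) was far lower, at 0.235, 0.186 and 0.762 CPM in P2- and 1.62, 1.52 and 1.15 CPM in P2+, a log2 fold change of 1.75 ± 0.58 (SE, n = 3 per group, edgeR adjusted p = 0.0428), and missed the threshold without P2- replicate 1 or P2- replicate 2. Gm16141 passed the level filter through its P2+ libraries alone and could not be tested without any 1 of them. Meis1 itself was at 106, 129 and 127 CPM in P2- and 384, 465 and 449 CPM in P2+, 1.81 ± 0.11 (SE, edgeR adjusted p = 8.43e-06) on the log2 scale. Meis1 is on the megakaryocyte list that was higher in P2+.

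4933424M12Rik (ENSMUSG00000087289, chr4:107783720-107789921, plus strand), which has no partner and is a lincRNA in the newer annotation, had 0, 0 and 0.485 CPM in P2- and 1.88, 1.66 and 2.76 CPM in P2+, a log2 fold change of 3.45 ± 0.86 (SE, n = 3 per group, edgeR adjusted p = 0.0124). It passed the level filter only through its P2+ libraries. Most of its P2- libraries were at 0 CPM, so the size of this rise is poorly fixed. Gimap1os, at the locus of the immune GTPase Gimap1, had 2.43, 1.03 and 1.11 CPM in P2- and 6.75, 6.23 and 3.22 CPM in P2+, a log2 fold change of 1.79 ± 0.43 (SE, n = 3 per group, edgeR adjusted p = 0.0111). The lymphoid markers were higher in P2+ than in P2- as well, and their part was not tested. Both transcripts kept their call in each reduced set of libraries in which they could be tested.

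The remaining 3 rises were lost without single libraries. Arhgap27os3, in the span of Arhgap27, had 0.784, 1.96 and 1.80 CPM in P2- and 5.73, 3.05 and 5.52 CPM in P2+, a log2 fold change of 1.61 ± 0.42 (SE, n = 3 per group, edgeR adjusted p = 0.0154), and missed the threshold without P2+ replicate 1 or P2+ replicate 3. Gm11697, across from the ABC transporter gene Abca8b, had a log2 fold change of 1.12 ± 0.32 (SE, n = 3 per group, edgeR adjusted p = 0.0225) and lost its call without P2- replicate 3, P2+ replicate 1 or P2+ replicate 2. Gm13012, inside Ece1, the endothelin-converting enzyme gene, had 4.23, 2.05 and 3.74 CPM in P2- and 5.73, 9.35 and 6.59 CPM in P2+, a log2 fold change of 1.08 ± 0.32 (SE, n = 3 per group, edgeR adjusted p = 0.0269), and lost it without replicate 2 or replicate 3 of either group. Their lowest log2 fold changes in the reduced sets were 1.30, 0.96 and 0.84.

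WT and KO did not enter this comparison, so their levels could be read against it. WT PreMegEs were not divided by hCD4 and may hold cells of both kinds. A WT mean between the groups can thus follow from the design alone. The WT mean lay between P2- and P2+ for 16 of the 17 changed transcripts, the exception being Gm9888, and over all 1626 changed genes in 94.1%. The KO mean was nearer to P2- than to P2+ for all 17 (log2 of CPM plus 0.5), and over all changed genes in 91.4%. It lay between the groups for 12 of the 17 (70.6%), against 83.1% of all changed genes, 86.8% of those higher and 71.9% of those lower in P2+. The WT mean was nearer to P2- for 12 of the 17 (70.6%), against 41.9% of all changed genes, and against 29.6% of those higher and 79.6% of those lower in P2+. No test was made of these shares.

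Another 7 transcripts passed at less than 2-fold and, Brip1os apart, were named after their values were seen, BC051226 and 6330562C20Rik lower and Brip1os, Gm2415, RP23-4H17.1, 2510046G10Rik and Gm11696 higher in P2+, with log2 fold changes from -0.78 to 0.78. Brip1os rose slightly, by 0.28 ± 0.09 (SE, edgeR adjusted p = 0.0397), while Ints2 across from it fell, -0.34 ± 0.10 (SE, edgeR adjusted p = 0.0247). Gm2415 rose by 0.56 ± 0.15 (SE, edgeR adjusted p = 0.0157) while Itga9, an integrin gene, moved by 1.70 ± 0.26 (SE, edgeR adjusted p = 0.00118).

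**Figure D2:**
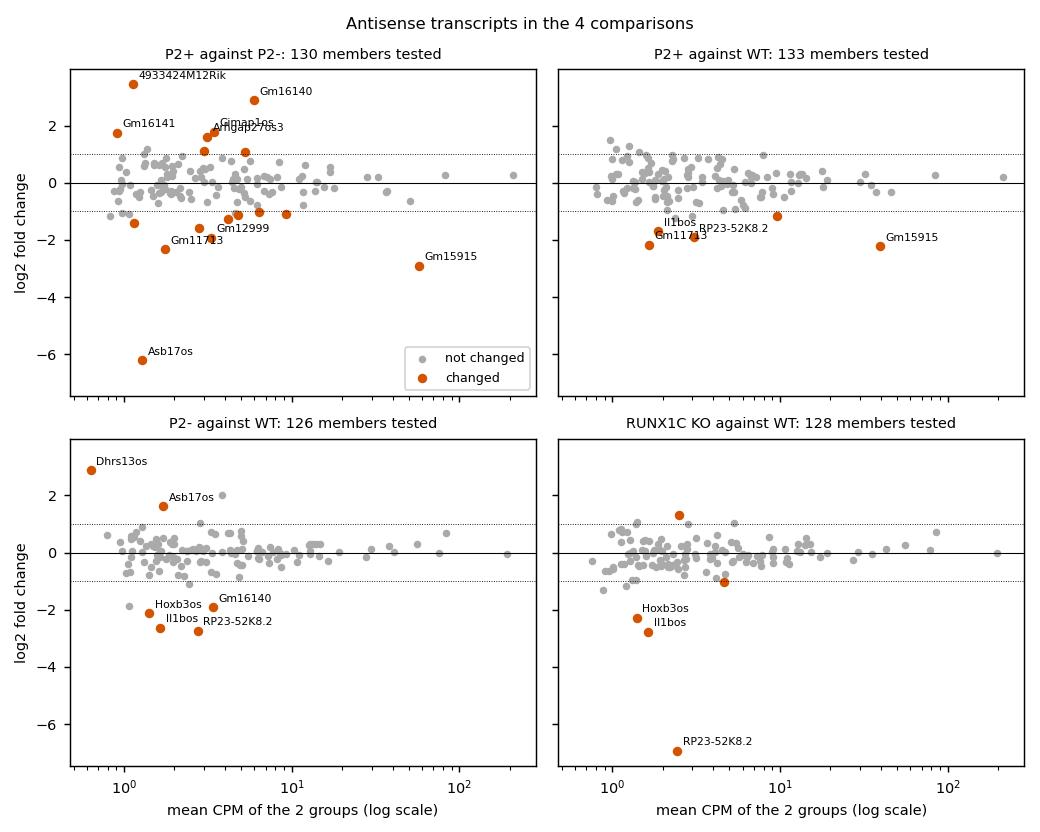
Log2 fold change of every transcript tested (vertical axis) against its mean CPM in the 2 groups (horizontal axis, log scale) in the 4 comparisons, with changed transcripts in orange and dotted lines at 2-fold. Of the transcripts tested 17 changed between P2+ and P2-, and 5, 6 and 5 in the comparisons with WT.

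The comparisons with WT share the WT libraries, so a value of WT that is high or low enters all 3. Between P2+ and WT, 5 of 133 transcripts changed, all lower in P2+, where 3.84% of all genes tested changed, 2.16% higher and 1.68% lower. Between P2- and WT, 6 of 126 changed, 2 higher and 4 lower in P2-, where 4.68% of all genes changed, 0.572% higher and 4.10% lower. Between KO and WT, 5 of 128 changed, 1 higher and 4 lower in KO, where 3.41% of all genes changed, 0.743% higher and 2.67% lower. The shares of changed transcripts, 3.76%, 4.76% and 3.91%, were near these backgrounds. In the 3 comparisons 31, 23 and 28 transcripts had libraries that did not overlap, or 23.3%, 18.3% and 21.9%, against 35.4%, 34.4% and 31.3% of all genes. At any fold 6, 7 and 6 transcripts passed, or 4.51%, 5.56% and 4.69%, against 16.5%, 16.5% and 14.9% of all genes. Their median SE was 0.38, 0.35 and 0.37, against 0.13, 0.13 and 0.12 for all genes. Over all 4 comparisons 22 transcripts changed in at least 1. The other 132 were called in none, but 21 to 28 transcripts were not tested in each comparison. The share of all genes that changed in at least 1 was not computed.

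**Figure D3:**
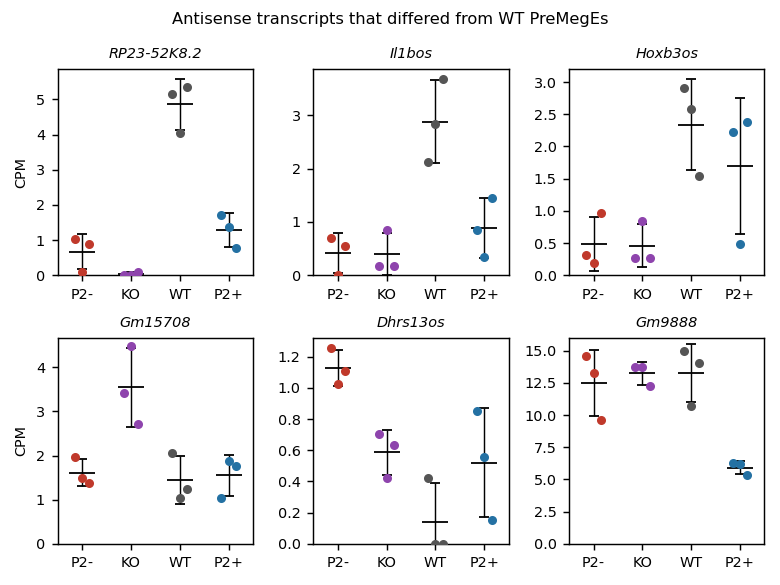
CPM of 6 transcripts that changed in a comparison with WT, in each library (points), by group on the horizontal axis, with the mean (long bar) and SD (whiskers, n = 3). RP23-52K8.2 is at 4.03 to 5.37 CPM in WT and at most 1.71 CPM in the other 9 libraries.

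RP23-52K8.2 (ENSMUSG00000101133, chr17:5388763-5419652, plus strand, Gm29050 in the newer annotation) was lower than WT in all 3 groups. It had 5.17, 4.03 and 5.37 CPM in WT, 1.02, 0.0932 and 0.900 CPM in P2-, 1.71, 1.39 and 0.767 CPM in P2+ and 0, 0 and 0.0905 CPM in KO. The WT libraries stood above all others, and the KO libraries held 0 or 1 count each. All KO libraries being at or under 3 counts, KO was at least 18.5-fold lower than WT (edgeR adjusted p = 1.37e-06; 3 counts per library as floor). P2- had a log2 fold change of -2.74 ± 0.50 (SE, n = 3 per group, edgeR adjusted p = 0.00505) and P2+ a log2 fold change of -1.90 ± 0.36 (SE, n = 3 per group, edgeR adjusted p = 0.00555) against WT. Tmem242, a mitochondrial membrane protein gene whose span it overlaps without shared exon bases, had 36.4 ± 3.00 CPM (SD, n = 3) in WT and 35.1 ± 1.01 CPM (SD, n = 3) in KO, -0.04 ± 0.10 (SE, edgeR adjusted p = 0.866). Of its 2942 exon bases 1445 (49.1%) lie under the exon of another gene on the minus strand, Ldhal6b, which was at 0.294 to 0.515 CPM in WT and 0.186 to 1.20 CPM in the other 9 libraries. WT was the only group without an engineered Runx1 allele. The study's methods call its wild type controls littermates on a C57BL/6 background, and which litters gave these libraries is not stated.

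Il1bos, across from the cytokine gene Il1b, had the same order of group means, with 2.12, 2.83 and 3.68 CPM in WT, 0.705, 0 and 0.554 CPM in P2-, 0.855, 0.346 and 1.46 CPM in P2+ and 0.175, 0.847 and 0.181 CPM in KO. WT did not overlap the others. KO had a log2 fold change of -2.77 ± 0.55 (SE, n = 3 per group, edgeR adjusted p = 0.00194), P2- a log2 fold change of -2.64 ± 0.63 (SE, n = 3 per group, edgeR adjusted p = 0.0180) and P2+ a log2 fold change of -1.69 ± 0.50 (SE, n = 3 per group, edgeR adjusted p = 0.0442), the last lost in 5 of 6 reduced sets, all but that without P2+ replicate 3. Il1b was near or under the floor in P2- and KO, at 0.103 ± 0.0313 CPM (SD, n = 3) and 0.0905 ± 0.157 CPM (SD, n = 3), and at 1.39 ± 0.584 CPM (SD, n = 3) in WT. In P2+ it was at 1.19 ± 1.02 CPM (SD, n = 3), a log2 fold change against WT of -0.18 ± 0.61 (SE, edgeR adjusted p = 0.875), with an SE too large to set against that of Il1bos. The neutrophil and monocyte markers, cells in which Il1b is known to be expressed, were also lower in P2- and KO than in WT, and higher in P2+, as given above. Their part was not tested.

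Hoxb3os, across from the homeobox gene Hoxb3, had 2.90, 2.57 and 1.54 CPM in WT, 0.313, 0.186 and 0.969 CPM in P2-, 0.263, 0.847 and 0.272 CPM in KO and 2.22, 0.485 and 2.38 CPM in P2+. P2- and KO lay below WT without overlap, and P2+ was split, with replicate 2 low. KO had a log2 fold change of -2.28 ± 0.53 (SE, n = 3 per group, edgeR adjusted p = 0.00684) and P2- a log2 fold change of -2.11 ± 0.56 (SE, n = 3 per group, edgeR adjusted p = 0.0289) against WT, the latter lost without P2- replicate 1. In P2- against WT too, Il1bos and Hoxb3os passed the level filter through WT alone and could not be tested without any 1 of the WT libraries. With the replicate number as a block the P2- value gave an edgeR adjusted p of 0.0684. Hoxb3 was lower in KO as well, -1.17 ± 0.28 (SE, edgeR adjusted p = 0.00920), and had -0.57 ± 0.28 (SE, edgeR adjusted p = 0.206) in P2-. Of the 4201 exon bases of Hoxb3os 3203 lie under exons of the other strand, so the pair may share reads. In KO against WT, RP23-52K8.2, Il1bos and Hoxb3os passed the level filter through WT alone and could not be tested without any 1 of the WT libraries.

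In P2- against WT the Meis1 transcript Gm16140 was lower, a log2 fold change of -1.90 ± 0.34 (SE, n = 3 per group, edgeR adjusted p = 0.00439), and Meis1 with it, -1.12 ± 0.09 (SE, edgeR adjusted p = 5.30e-05). In P2+ against WT Gm16140 was higher at just under 2-fold, a log2 fold change of 0.98 ± 0.26 (SE, n = 3 per group, edgeR adjusted p = 0.0291). In KO against WT it had a log2 fold change of -0.88 ± 0.32 (SE, n = 3 per group, edgeR adjusted p = 0.0800) and Meis1 -0.65 ± 0.07 (SE, edgeR adjusted p = 4.38e-06). The groups did not overlap in any of the 3.

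Asb17os was higher in P2- than in WT, a log2 fold change of 1.62 ± 0.48 (SE, n = 3 per group, edgeR adjusted p = 0.0439), and so was Asb17, 2.34 ± 0.42 (SE, edgeR adjusted p = 0.00421). The call of the transcript was lost without WT replicate 1, WT replicate 3, P2- replicate 1 or P2- replicate 3, and with the replicate block the edgeR adjusted p was 0.0839. Dhrs13os, whose exons overlap those of the chromatin factor gene Phf12 in 528 bases, had 0.425, 0 and 0 CPM in WT and 1.25, 1.03 and 1.11 CPM in P2-, a log2 fold change of 2.89 ± 0.87 (SE, n = 3 per group, edgeR adjusted p = 0.0461). It passed the filter through P2- alone, lost its call without WT replicate 2 or WT replicate 3, and had an edgeR adjusted p of 0.0740 with the block. Its fold rests on WT libraries of 0 to 6 counts.

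Gm15915 set P2+ apart from WT too, at a log2 fold change of -2.21 ± 0.13 (SE, n = 3 per group, edgeR adjusted p = 3.60e-06). It was above WT in P2-, by a log2 fold change of 0.70 ± 0.12 (SE, n = 3 per group, edgeR adjusted p = 0.00380), and in KO, by a log2 fold change of 0.73 ± 0.09 (SE, n = 3 per group, edgeR adjusted p = 1.46e-05), both under 2-fold. Ntn4 moved by 0.69 ± 0.20 (SE, edgeR adjusted p = 0.0393) in P2- and 0.72 ± 0.19 (SE, edgeR adjusted p = 0.0161) in KO, close in size to the transcript. Gm11713 and Gm9888 were the other transcripts lower in P2+ than in WT, with a log2 fold change of -2.17 ± 0.42 (SE, n = 3 per group, edgeR adjusted p = 0.00595) and a log2 fold change of -1.15 ± 0.20 (SE, n = 3 per group, edgeR adjusted p = 0.00313). Gm11713 was under 1 CPM in all P2+ libraries, so it passed the filter through WT alone and could not be tested without any 1 of the WT libraries. Neither changed in P2- or KO against WT.

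In KO against WT, Gm13012 fell from 6.02, 6.44 and 6.47 CPM to 3.33, 2.96 and 2.72 CPM, a log2 fold change of -1.05 ± 0.26 (SE, n = 3 per group, edgeR adjusted p = 0.0101), with Ece1 at -0.54 ± 0.10 (SE, edgeR adjusted p = 0.00137). The groups did not overlap, and without KO replicate 3 the change was just short of 2-fold, at -0.98. Gm15708, across from the actin regulator gene Baiap2l1, was higher in KO, with 3.42, 4.49 and 2.72 CPM against 2.05, 1.03 and 1.25 CPM in WT, a log2 fold change of 1.30 ± 0.39 (SE, n = 3 per group, edgeR adjusted p = 0.0314). This call was lost without WT replicate 2, WT replicate 3, KO replicate 1 or KO replicate 2.

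Across from genes of the marker lists lay 5 transcripts, the 2 of Meis1 and Zeb2os, Gm16224 and Runx2os1. Zeb2os, across from the zinc finger factor gene Zeb2, had 3.46 to 7.69 CPM over the 12 libraries and changed in no comparison. Its P2+ to P2- value was a log2 fold change of 0.50 ± 0.27 (SE, n = 3 per group, edgeR adjusted p = 0.176), while Zeb2 had 0.77 ± 0.15 (SE, edgeR adjusted p = 0.00431). Gm16224, in Runx3, was at 0.823 ± 0.414 CPM (SD, n = 3) in P2- and 1.91 ± 0.238 CPM (SD, n = 3) in P2+, a log2 fold change of 1.19 ± 0.48 (SE, n = 3 per group, edgeR adjusted p = 0.0849), with no overlap between the libraries. Runx2os1, across from Runx2, was too low to test in P2+ against P2- and had 0.0735 to 1.34 CPM over all libraries, although Runx2 had 1.26 ± 0.10 (SE, edgeR adjusted p = 2.32e-05) in that comparison. Runx2 and Runx3 are paralogs of Runx1.

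**Figure D4:**
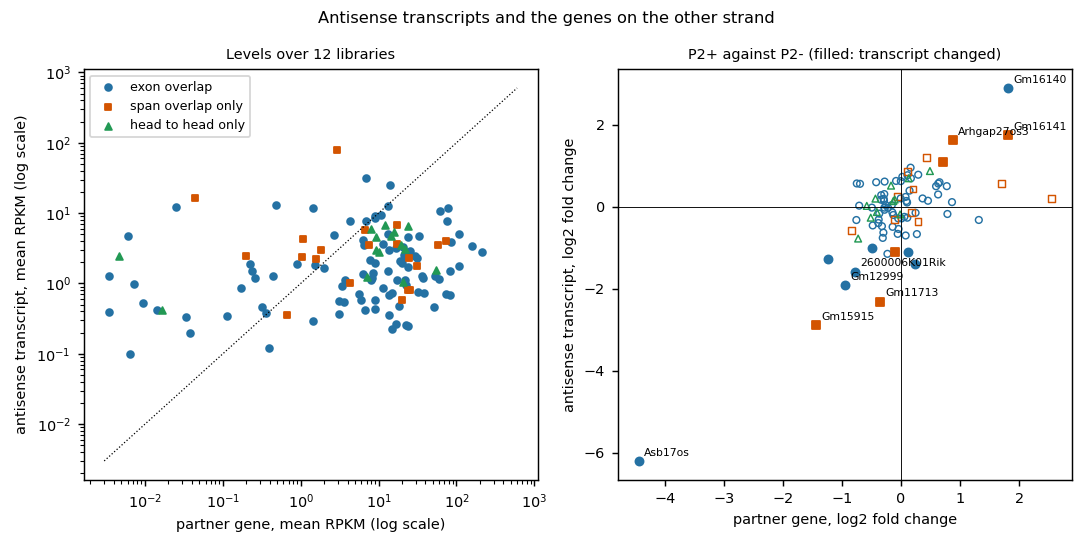
Left, mean RPKM over 12 libraries of each transcript against its partner on log axes for 133 pairs (9 partners at 0 not drawn), with a dotted line of equal level and symbols for exon overlap, span overlap or a head-to-head start. Right, their log2 fold changes between P2+ and P2- in the 94 pairs tested, filled where the transcript changed. The pairs at the corners, Asb17os and Gm16140, moved with Asb17 and Meis1.

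In the 94 pairs in which both were tested between P2+ and P2-, 61 had the same sign and the log2 fold changes had a Pearson r of 0.72 and a Spearman correlation of 0.49 across pairs. Pairs are not independent replicates, they share libraries and may share reads, and 2 of them share Meis1. In 67 pairs with exon overlap these were 0.76 and 0.36, in 16 pairs that overlap in span only 0.66 and 0.76, and in 11 head-to-head pairs 0.81 and 0.66. In the head-to-head pairs 6 of 11 had the same sign. Some pairs were tested only because 1 group was high, Asb17os and Gm16141 among them. Over the 88 pairs in which both genes reached 1 CPM in a library of each group (a restriction chosen after seeing the data) r was 0.60 and the Spearman value 0.47, with 56 of the same sign. Over the 24 pairs in which the transcript had no exon base under any exon of the other strand they were 0.63 and 0.66, with 16 of the same sign. The values over unrelated genes were not computed, and the part of shared reads was not tested. Both members changed in 5 pairs, all in the same direction, Gm15915 with Ntn4, Asb17os with Asb17, RP23-362B7.1 with Dnah8, and Gm16140 and Gm16141 with Meis1. Both passed at any fold in 17, of which 15 had the same direction, and 2 the opposite, Brip1os with Ints2 and Gm26513 with Senp1, a SUMO protease gene. The values across pairs were 0.46 and 0.51 in P2+ against WT (100 pairs), 0.42 and 0.43 in P2- against WT (94 pairs), and 0.20 and 0.34 in KO against WT (95 pairs), these 3 with WT in common. In head-to-head pairs alone they were 0.38 and 0.45 (9 of 11 of the same sign), 0.70 and 0.75 (6 of 11) and 0.12 and -0.05 (4 of 12). Over pairs with no exon base under any exon of the other strand they were 0.64 and 0.66 (26 pairs), 0.69 and 0.69 (22 pairs) and 0.64 and 0.47 (24 pairs). In no comparison did a transcript and its partner both change in opposite directions.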

How the data were processed

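Poly(A) RNA of sorted PreMegEs was sequenced on 12 strand-specific libraries (paired ends, Agilent SureSelect). The authors aligned reads to GRCm38 by Bowtie2 and counted them per gene with featureCounts on an Ensembl annotation, and the deposited table holds raw counts, not normalized. Tools named per the labels include Bowtie2 2.21, SAMtools 0.1.19, R 3.1.0 and edgeR 3.8.5. Strand, multi-mapping and overlap settings of the counting are not given in the sources used here, and no column was left out (0 columns not used).

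Each comparison of 3 against 3 libraries was fitted over all genes that reached 1 CPM in 3 or more of its 6 libraries, by edgeR 4.0.16 (R 4.3.3; quasi-likelihood F-test, TMM scaling), with Benjamini-Hochberg adjustment over all genes tested. Changed means an adjusted p under 0.05 and at least 2-fold. Printed CPM use column totals, folds the TMM fit. Positions, exon lengths and partners came from GENCODE vM21 (GRCm38). The partner was the gene on the other strand with the largest span overlap, protein coding preferred, else the nearest protein-coding start within 2 kb. Depth and the 3-count floor are given with the results. Libraries pool 3 mice, and p-values measure the spread between libraries only.

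Transcripts named are the 8 largest rises and 8 largest falls per comparison that did not overlap and averaged 2 CPM or more in the group where they were higher, the 10 highest by RPKM, those across from marker genes, pairs that changed in opposite directions, the 3 on each side of the level rule and the 5 steadiest. Members and lists were chosen with earlier results of these data known. Replicate numbers of P2+ and P2- paired the libraries by the data (correlations of deviations from the group means 0.403, 0.591 and 0.432 for same numbers, each over 0.1) and those of the other comparisons did not (KO and WT 0.186, 0.0223 and 0.0919). Alternatives were other scalings, filters and tests (DESeq2 1.42.0, exactTest), 1 fit of all 4 groups, a replicate block and leaving out libraries.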

Additional observations from a re-analysis of the deposited data

How the results depend on the processing

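No named call reversed in any alternative run. Of 407 repeats of the 31 named calls, 363 stayed past the threshold and 44 did not, and 18 of the calls stayed in each setting in which they could be tested. Settings differ in this, since a call has no value where the transcript fails the filter. Only 18 of the 31 could be tested at a mean of at least 2 CPM, and all 18 stayed past the threshold. Without both number 2 libraries 19 could be tested, over all comparisons together, and 14 of these stayed. In P2+ against P2- the number of changed transcripts, 17, was 11 to 14 when 1 library was left out, and 11 without P2- replicate 3 or without P2+ replicate 3. In P2+ against WT, 5 changed became 9 by exactTest, 8 with no filter on low counts, 8 in 1 fit of all 4 groups, and 3 to 7 with 1 library left out, 3 being without WT replicate 2. In P2- against WT, 6 became 1 among transcripts with a mean of at least 2 CPM, 3 with the replicate block, 2 without both number 2 libraries (chosen after seeing the data), and 2 to 6 with 1 library left out, 2 being without WT replicate 3 and 3 without WT replicate 1 or 2. In KO against WT, 5 became 2 among transcripts with a mean of at least 2 CPM and 1 to 4 with 1 library left out, 1 being without WT replicate 2 or 3. Without both number 2 libraries edgeR gave 0, with 8 at an unadjusted p under 0.05 of 110 tested, while DESeq2 with all libraries gave 6. With only 2 libraries in a group, a transcript expressed there alone cannot meet 1 CPM in 3 libraries, so part of these losses follow from the filter. For the rest the cause was not tested. With the replicate block the counts were 17, 6 and 6 in P2+ against P2-, P2+ against WT and KO against WT, and the 17 were the same transcripts. What depth limits was not tested. The median member had 26.3 counts a library.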
